A study of Mus musculus with 24 samples.

Results

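Organic anion and cation drug transporters are membrane proteins that move drugs, toxins, urate and metabolic waste between blood, proximal tubule cells and urine. The 9 genes described here, of 55416 gene IDs in the table, are Slc22a6 (OAT1), Slc22a8 (OAT3), Slc22a7 (OAT2), Slc22a2 (OCT2), Slc47a1 (MATE1), Slc22a12 (URAT1), Slc22a13 (OAT10), Slco1a1 (OATP1A1) and Abcc2 (MRP2). They are the rows whose Ensembl ID, taken without its version, maps to these mouse symbols, a rule that uses no measured value, although the set was chosen with earlier results of these data known. All 9 were found, and all 9 passed the filter on low values (10 or more normalized counts in 6 or more libraries). As background, OAT1 and OAT3 sit on the blood side of the proximal tubule cell and take up organic anions in exchange for dicarboxylates, whose gradient sodium-coupled carriers maintain. OCT2 takes up organic cations on the same side, driven by the membrane potential, and MATE1 releases them into the lumen in exchange for protons. URAT1 and OAT10 exchange urate at the luminal membrane, and MRP2 is an ATP-driven pump that exports glutathione and glucuronide conjugates there.

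Mouse kidney RNA was sequenced in 24 libraries, 6 in each of 4 groups, to ask how mutations of mitochondrial DNA contribute to damage of the kidney by ischemia and reperfusion. The groups are B-IRI PolgD257A, B-IRI Polg+/+, sham PolgD257A and sham Polg+/+, where B-IRI is the labels' name for the ischemia reperfusion surgery. PolgD257A is a change in the mitochondrial DNA polymerase that removes its proofreading, and the Polg+/+ animals were littermates. The sources used here do not give zygosity, sex, age, the time after surgery or any pooling of animals. Each library held 16689284 to 26341004 reads assigned to genes, with medians of 23315849 in B-IRI PolgD257A, 23581763.5 in B-IRI Polg+/+, 21778420.5 in sham PolgD257A and 19422215.5 in sham Polg+/+.

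Checks of the labels came out as follows. Polg itself averaged 1137 ± 51.5 normalized counts in B-IRI PolgD257A, 1078 ± 42.2 in B-IRI Polg+/+, 1046 ± 52.8 in sham PolgD257A and 1060 ± 24.3 in sham Polg+/+ (SD, n = 6 each), and as the mutation is a codon change its level does not check the genotype. The injury marker Havcr1 ranged over 25923 to 36062 in B-IRI PolgD257A and 5441 to 24888 in B-IRI Polg+/+, against 143 to 198 in sham PolgD257A and 112 to 180.1 in sham Polg+/+. The proximal tubule receptor Lrp2 was at 19112 normalized counts or more in every library. Of 7 hepatocyte genes, Cyp3a11, Abcb11 and Tat reached at most 2.28, 2.17 and 1.35 normalized counts, while Alb ranged over 41.8 to 162 and Slc10a1 reached 38.1. The 3 of them that passed the filter gave 2 lower after B-IRI in PolgD257A, 1 lower in Polg+/+ and none higher. All 24 libraries carried the Y-linked genes Ddx3y, Kdm5d, Uty and Eif2s3y and had at most 7.42 normalized counts of Xist. Sham Polg+/+ replicate 6 was the lowest of its group for 6 of the 9 transporters. Without it the change after B-IRI in Polg+/+ was -0.54 for Slc22a2, -0.55 for Slc47a1, -0.19 for Slc22a12 and 0.25 for Abcc2. B-IRI Polg+/+ replicate 1 was the highest of its group for 6 of the 9, had the lowest Havcr1 of the injured libraries at 5441 and lay nearest to the sham libraries on the first principal component. Leaving out either library kept 7 transporters called after B-IRI in Polg+/+ and 8 between the injured groups, and left 4 in place of 5 for the interaction term, Slco1a1 being lost.

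After B-IRI, most of the transporters were lower than in sham kidneys, and lower in PolgD257A than in Polg+/+ kidneys. Against sham PolgD257A, 8 of the 9 were lower and Abcc2 was higher in B-IRI PolgD257A, with a median log2 change of -1.12 over the 9 and -0.00 over all 17430 genes tested. In that comparison 60.4% of all genes tested passed an adjusted p of 0.05 (limma on log2 of the normalized count + 1, Benjamini-Hochberg), 30.3% of them lower and 30.2% higher as shares of all tested. Against sham Polg+/+, 6 were lower, Abcc2 was higher and 2 did not pass in B-IRI Polg+/+, with a median of -0.50 against -0.01 over all genes and a background of 41.2% passing, 19.8% lower and 21.4% higher. Between the injured groups, 8 were lower in B-IRI PolgD257A than in B-IRI Polg+/+ and Abcc2 did not pass, with a median of -0.65 against 0.01 over all genes and a background of 29.5% passing, 15.2% lower. In sham kidneys none of the 9 passed between PolgD257A and Polg+/+, where 0.126% of all genes did. None of the 9 reached an unadjusted p under 0.05 in that comparison by limma, edgeR or DESeq2.

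In ranges over libraries, 7 of the 9 transporters lay below every sham PolgD257A library in all 6 B-IRI PolgD257A libraries, where 17.5% of all genes tested did so and 36.2% did not overlap in either direction. In Polg+/+, 3 lay below and 1 above every sham library after B-IRI, where the shares over all genes were 8.70% and 11.5%. Between the injured groups 3 lay wholly lower in PolgD257A, where 5.94% of all genes did, and in the sham groups all 9 overlapped, as did all but 0.631% of genes. In bulk tissue, fewer proximal tubule cells and less RNA per cell cannot be told apart.

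**Figure D1:**
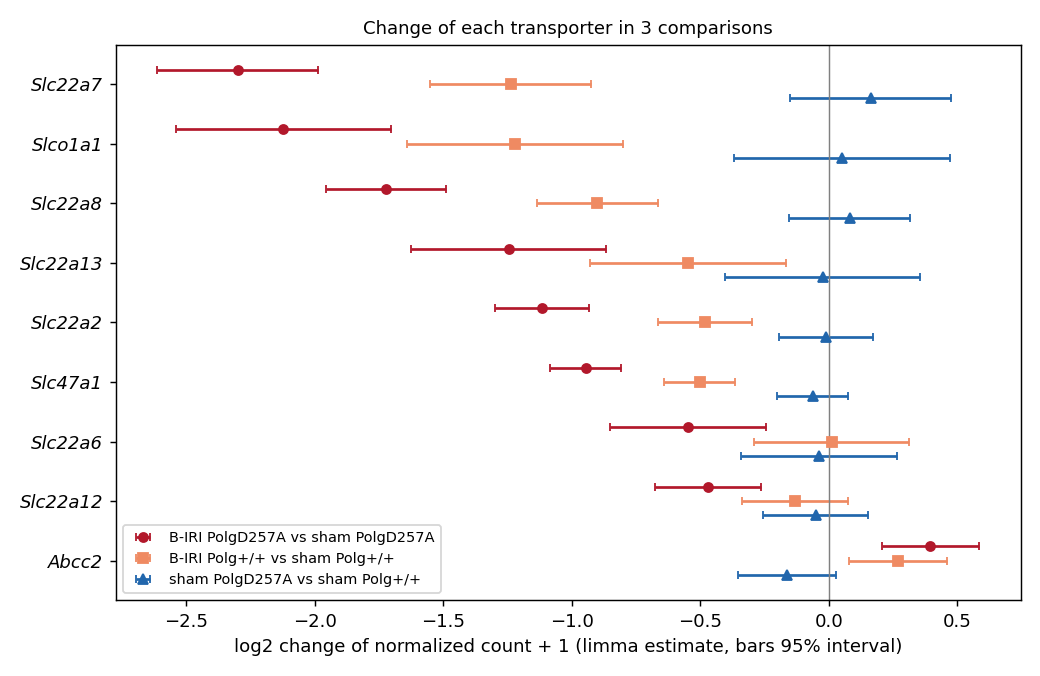
Log2 change of each transporter with its 95% interval in 3 comparisons, B-IRI against sham in PolgD257A (circles), B-IRI against sham in Polg+/+ (squares) and sham PolgD257A against sham Polg+/+ (triangles). The sham comparison lies at 0.16 or less in size for every gene, while the B-IRI estimates reach -2.30 for Slc22a7 in PolgD257A and are above 0 for Abcc2 in both genotypes.

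Among the anion uptake carriers, OAT1 and OAT3 took different courses although their genes are neighbours. Slc22a8 lies at chr19:8591254-8611835 and Slc22a6 at chr19:8618039-8628299 on GRCm38, both on the + strand, with 6203 bases between them (GENCODE M21). Slc22a6, which encodes the classical p-aminohippurate carrier, had 11634, 17444 and 20548 normalized counts (lowest, median and highest of 6 libraries) in B-IRI PolgD257A and 19727, 25141 and 31596 in B-IRI Polg+/+, against 21310.3, 23519 and 27522 in sham PolgD257A and 15814, 25709 and 29469 in sham Polg+/+. The B-IRI PolgD257A libraries lay below every sham PolgD257A library, while those of B-IRI Polg+/+ overlapped with sham Polg+/+. Its log2 change was -0.55 ± 0.15 (SE) in PolgD257A (limma, adjusted p = 0.0022), a 1.46-fold lower level, and 0.01 in Polg+/+, with a 95% interval of -0.29 to 0.31 (adjusted p = 0.96). After quantile normalization the PolgD257A change was -0.15 (adjusted p = 0.337) and no longer passed. Without sham Polg+/+ replicate 6, the lowest of its group at 15814, the Polg+/+ change was -0.11 and still did not pass.

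Slc22a8 encodes the carrier of larger and more lipophilic anions such as steroid sulfates. It had 2386, 2699 and 4236 normalized counts in B-IRI PolgD257A and 3946, 4881 and 6052 in B-IRI Polg+/+, against 9055, 9685 and 10257 in sham PolgD257A and 8221, 9003 and 10506 in sham Polg+/+. Every B-IRI library was below every sham library of either genotype, and the 2 injured groups overlapped only between 3946 and 4236. The gene fell by 1.72 ± 0.11 on the log2 scale in PolgD257A, 3.30-fold lower (limma, adjusted p = 1.3e-12), and by 0.90 ± 0.11 in Polg+/+, 1.87-fold lower (adjusted p = 6.4e-07).

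Within each library, the log2 ratio of Slc22a6 to Slc22a8 averaged 2.46 ± 0.42 in B-IRI PolgD257A, against 1.29 ± 0.17 in sham PolgD257A (SD, n = 6 each). In Polg+/+ it averaged 2.32 ± 0.23 after B-IRI, against 1.41 ± 0.32 after sham. The shift of 1.17 in PolgD257A, a 2.26-fold higher ratio, and that of 0.91 in Polg+/+, 1.88-fold, each had an exact two-sided permutation p of 0.00216, the smallest that 924 relabelings can give (adjusted p = 0.00866 over 16 ratio tests). The groups of 6 ratios did not overlap between B-IRI and sham in either genotype. Between the injured groups the ratio differed by 0.14 (exact permutation, adjusted p = 0.566) and between the sham groups by -0.12 (adjusted p = 0.546).

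Slc22a7, at chr17:46432183-46438457 on the - strand, encodes an anion carrier that in human cells also transports cyclic GMP and creatinine. It and Slco1a1 had the deepest falls of the 9 in both genotypes. Normalized counts were 934, 1694 and 2156 in B-IRI PolgD257A and 2305, 2919 and 3186 in B-IRI Polg+/+, against 6724, 7306 and 8044 in sham PolgD257A and 5972, 6291 and 8441 in sham Polg+/+. All 4 groups but the 2 sham groups were separate, with B-IRI PolgD257A lowest. The log2 change was -2.30 ± 0.15 in PolgD257A, 4.92-fold lower (limma, adjusted p = 1.4e-12), and -1.24 ± 0.15 in Polg+/+, 2.36-fold lower (adjusted p = 4.3e-07). The mean in B-IRI PolgD257A was 21.3% of its sham mean, and that in B-IRI Polg+/+ was 42.4% of its own.

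**Figure D2:**
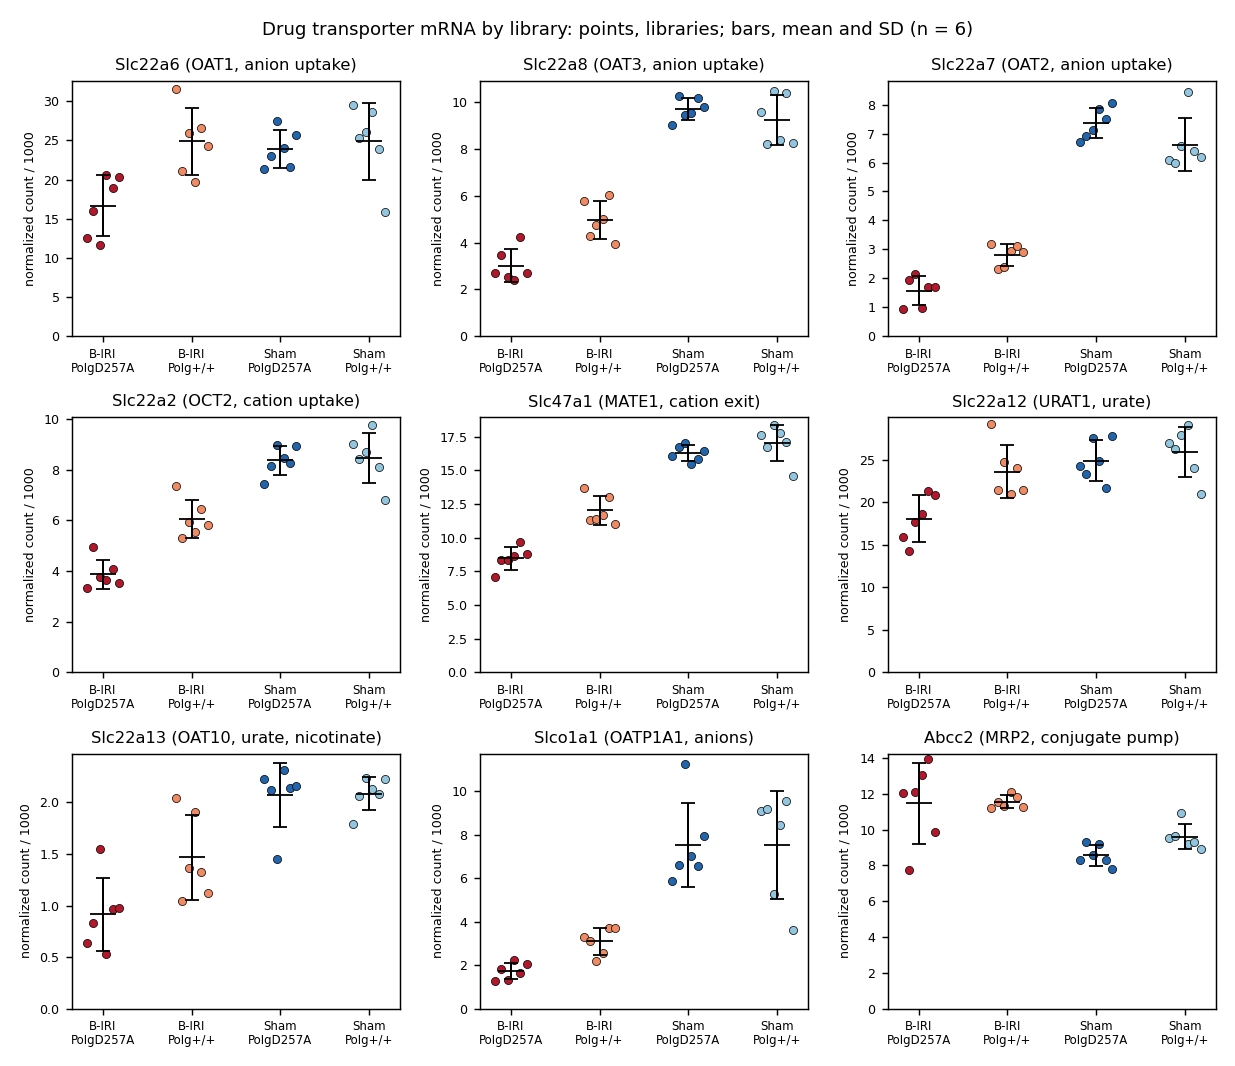
Normalized counts, in units of 1000, of the 9 transporters in each of the 24 libraries, by group, with mean and SD (n = 6). Slc22a8, Slc22a7 and Slc47a1 separate B-IRI from sham in both genotypes. Slc22a6, Slc22a12, Slc22a2, Slc22a13 and Slco1a1 overlap with sham in Polg+/+, and Slc22a13 and Abcc2 overlap with sham in PolgD257A. Abcc2 is the gene whose B-IRI means lie above its sham means.

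Both genes of the cation pair fell in both genotypes. Slc22a2, at chr17:12584132-12628488, encodes the uptake carrier for metformin, cisplatin and creatinine. Its normalized counts were 3338, 3717 and 4932 in B-IRI PolgD257A and 5311, 5860.2 and 7371 in B-IRI Polg+/+, against 7432, 8358 and 8974 in sham PolgD257A and 6820.3, 8564 and 9747 in sham Polg+/+. B-IRI PolgD257A lay below the other 3 groups, and B-IRI Polg+/+ overlapped with sham Polg+/+ only through the highest injured and the lowest sham library. The fall was 2.17-fold in PolgD257A (log2 -1.12 ± 0.09, limma, adjusted p = 3.8e-11) and 1.40-fold in Polg+/+ (-0.48 ± 0.09, adjusted p = 9.7e-05).

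Slc47a1, at chr11:61343401-61378345 on the - strand, encodes the luminal proton exchanger that completes cation secretion. It had 7108, 8491 and 9715 normalized counts in B-IRI PolgD257A and 11056, 11552 and 13715 in B-IRI Polg+/+, against 15459.6, 16296 and 17052 in sham PolgD257A and 14561, 17376 and 18375 in sham Polg+/+. The 2 injured groups were separate from each other and from both sham groups, and the sham groups overlapped. Its log2 change of -0.95 ± 0.07 in PolgD257A (limma, adjusted p = 4.9e-12) and -0.50 ± 0.07 in Polg+/+ (adjusted p = 1.4e-06) had the smallest standard error of the 9. The ratio of exit to uptake carrier, Slc47a1 over Slc22a2, moved by 0.17 in PolgD257A (exact permutation, adjusted p = 0.177) and by -0.02 in Polg+/+ (adjusted p = 0.7), neither beyond the spread between libraries. Without B-IRI PolgD257A replicate 2, the PolgD257A shift was 0.25 and passed (adjusted p = 0.0198).

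Of the 2 urate exchangers, the abundant one changed less. Slc22a12, at chr19:6535845-6543032 on the - strand, encodes the main luminal urate reabsorber. It overlaps an exon of Nrxn2 on the opposite strand, and without strand information reads of the pair cannot be told apart there. Its normalized counts were 14224, 18163 and 21299 in B-IRI PolgD257A and 20919, 22713 and 29236 in B-IRI Polg+/+, against 21671, 24549 and 27759 in sham PolgD257A and 20926, 26624 and 29041 in sham Polg+/+. B-IRI PolgD257A lay just under its sham group, and B-IRI Polg+/+ overlapped with sham Polg+/+. The change was -0.47 ± 0.10 in PolgD257A (limma, adjusted p = 0.00022) and -0.13 in Polg+/+, with an interval of -0.34 to 0.07 (adjusted p = 0.3). Quantile normalization left -0.05 in PolgD257A (adjusted p = 0.657), so that the call was lost, and turned the Polg+/+ value to 0.16 without a call.

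Slc22a13, at chr9:119192974-119209098 on the - strand, encodes OAT10, which exchanges nicotinate and urate, and lies partly in an intron of Slc22a14 on the same strand. It had 533, 900.5 and 1545 normalized counts in B-IRI PolgD257A and 1042, 1347 and 2045 in B-IRI Polg+/+, against 1448, 2151 and 2311 in sham PolgD257A and 1789, 2104 and 2233 in sham Polg+/+. Injured and sham libraries overlapped in both genotypes, in PolgD257A through 1 high injured and 1 low sham library. The log2 change was -1.25 ± 0.18 in PolgD257A, 2.37-fold lower (limma, adjusted p = 1.9e-06), and -0.55 ± 0.18 in Polg+/+ (adjusted p = 0.019). The Polg+/+ call was lost without B-IRI Polg+/+ replicate 2 (-0.46, adjusted p = 0.0573) or replicate 6 (-0.48, adjusted p = 0.0521). The ratio of Slc22a12 to Slc22a13 rose by 0.77 in PolgD257A (exact permutation, adjusted p = 0.0462), and the 2 groups overlapped. That call was lost with a pseudocount of 5 (adjusted p = 0.0519) and in 9 of the 12 tests that left out 1 library of these groups, namely B-IRI PolgD257A replicates 1, 4, 5 and 6 and sham PolgD257A replicates 1, 2, 4, 5 and 6. In Polg+/+ the ratio moved by 0.42 (adjusted p = 0.0841), and by 0.53 without B-IRI Polg+/+ replicate 4, which passed (adjusted p = 0.0277).

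Slco1a1 and Abcc2 moved in opposite directions. Slco1a1, at chr6:141907282-141946962 on the - strand, encodes a carrier of bile acids and steroid conjugates that in mouse kidney depends on androgen. Its normalized counts were 1278, 1735 and 2219.8 in B-IRI PolgD257A and 2196, 3204 and 3717 in B-IRI Polg+/+, against 5879, 6800.4 and 11221 in sham PolgD257A and 3619, 8759.6 and 9541 in sham Polg+/+. B-IRI PolgD257A lay wholly below sham PolgD257A, while the highest B-IRI Polg+/+ libraries passed the lowest sham Polg+/+ library, replicate 6. The change was -2.12 ± 0.20 in PolgD257A, 4.35-fold lower (limma, adjusted p = 1.3e-09), and -1.22 ± 0.20 in Polg+/+, 2.33-fold lower (adjusted p = 2.9e-05). Without sham Polg+/+ replicate 6 the Polg+/+ change was -1.42. Slco1a1 had the widest sham spread of the 9 relative to its mean, with SDs of 1931 around 7527 in sham PolgD257A and 2467 around 7519.7 in sham Polg+/+.

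Abcc2, at chr19:43782192-43840740 on the + strand, was the 1 member that rose. It had 7763, 12077 and 13937 normalized counts in B-IRI PolgD257A and 11226, 11426 and 12106 in B-IRI Polg+/+, against 7777, 8445 and 9279 in sham PolgD257A and 8936, 9443 and 10905 in sham Polg+/+. All B-IRI Polg+/+ libraries lay above all sham Polg+/+ libraries, within a narrow range. In PolgD257A 5 of 6 injured libraries were above every sham library, and replicate 2, at 7763, was below all of them. Its level was 1.32-fold higher in PolgD257A (log2 0.40 ± 0.09, limma, adjusted p = 0.00062) and 1.21-fold higher in Polg+/+ (0.27 ± 0.09, adjusted p = 0.021). Without that library the PolgD257A change was 0.50.

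RefSeq promoters on GRCm38.p6 were at hand for 7 of the 9 genes, and each was searched on both strands from 250 bases before to 50 bases after the start. The bases before the RefSeq start of Abcc2 are shown for the match to TGACNNNGC, in capitals. These letters are the core of the element bound by NRF2, a factor known to induce this pump. The match begins 98 bases before the RefSeq start, and 12.4% of 32851 RefSeq promoters of this length hold such a match on either strand. In GENCODE, Abcc2 starts further upstream, at 43782192, so by that annotation the match lies inside the gene and not before its start. A match is a description of letters, not of a bound site. Abcc2 and Slco1a1 also hold the nuclear receptor hexamer AGGTCA, which is in 16.3% of promoters.
Abcc2 (chr19:43782058-43782307, strand +): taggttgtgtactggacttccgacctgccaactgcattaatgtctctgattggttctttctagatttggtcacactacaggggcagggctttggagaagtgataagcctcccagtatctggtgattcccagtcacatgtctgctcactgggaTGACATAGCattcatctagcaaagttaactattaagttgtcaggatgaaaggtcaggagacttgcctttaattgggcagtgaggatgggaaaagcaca

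The log2 ratio of Slco1a1 to Abcc2 averaged -2.74 ± 0.50 in B-IRI PolgD257A, against -0.22 ± 0.35 in sham PolgD257A, and -1.92 ± 0.31 in B-IRI Polg+/+, against -0.43 ± 0.59 in sham Polg+/+ (SD, n = 6 each). The ratio fell by 2.52 in PolgD257A, 5.73-fold, and by 1.49 in Polg+/+, 2.81-fold (each exact two-sided permutation, adjusted p = 0.00866). In B-IRI PolgD257A the ratio was lower than in B-IRI Polg+/+ (difference -0.81, exact permutation, adjusted p = 0.0346). That last call was lost in 8 of the 12 tests that left out 1 library of these groups, namely B-IRI PolgD257A replicates 1, 3, 4 and 5 and B-IRI Polg+/+ replicates 1, 2, 5 and 6.

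**Figure D3:**
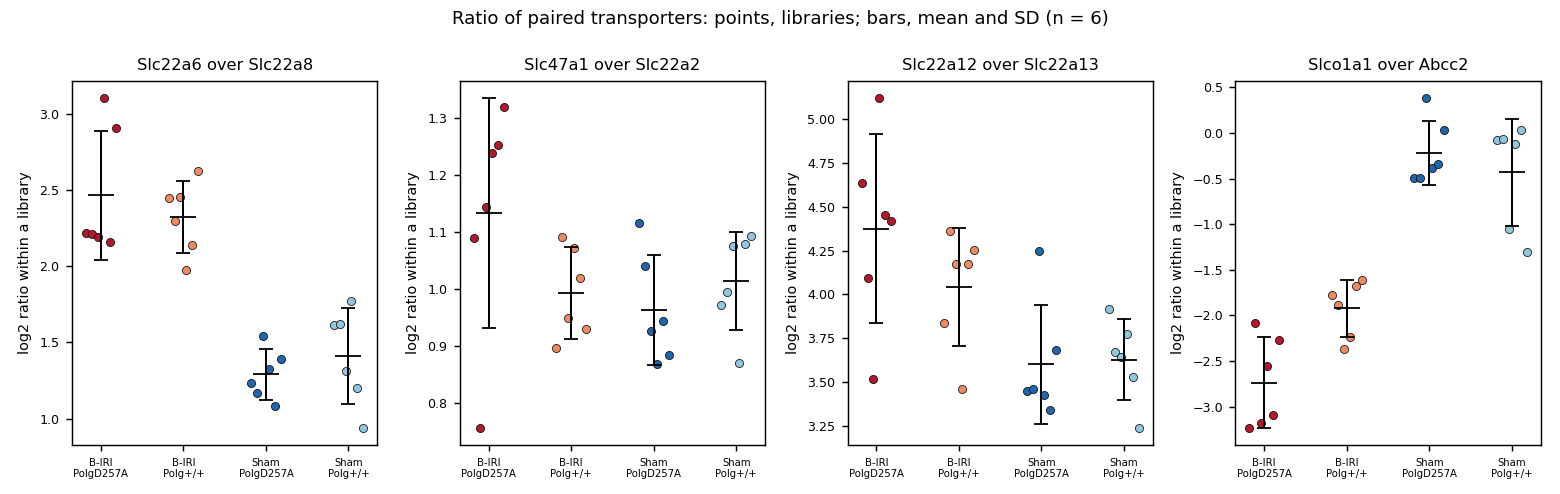
Log2 ratio of the normalized counts of 2 transporters within each library, for 4 pairs, with mean and SD per group (n = 6). Slc22a6 over Slc22a8 is higher and Slco1a1 over Abcc2 lower in every B-IRI library than in every sham library of the same genotype, while Slc47a1 over Slc22a2 overlaps in all 4 groups.

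After injury the genotypes differed in 8 of the 9 transporters, where 29.5% of all genes tested passed, 15.2% lower in PolgD257A. Between B-IRI PolgD257A and B-IRI Polg+/+, the log2 differences were -0.90 ± 0.15 for Slc22a7, -0.85 ± 0.20 for Slco1a1, -0.74 ± 0.11 for Slc22a8 and -0.72 ± 0.18 for Slc22a13. They were -0.65 ± 0.09 for Slc22a2, -0.60 ± 0.15 for Slc22a6, -0.51 ± 0.07 for Slc47a1 and -0.39 ± 0.10 for Slc22a12. All 8 passed in limma, with adjusted p between 4.9e-06 and 0.0042. Abcc2 differed by -0.04, with an interval of -0.23 to 0.15 (adjusted p = 0.80). Slc22a7, Slc22a2 and Slc47a1 were the 3 genes whose injured groups did not overlap, where 5.94% of all genes tested lay wholly lower in PolgD257A. In sham kidneys the differences ran from -0.16 for Abcc2 to 0.16 for Slc22a7, with 95% intervals that reached from -0.40 for Slc22a13 to 0.48 for Slc22a7.

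The interaction term tests whether the B-IRI change itself differs between genotypes, and a negative value is a larger fall in PolgD257A. It passed for 5 of the 9 transporters, all negative, against 15.9% of all genes tested, 9.08% negative. Slc22a7 had -1.06 ± 0.22 (limma, adjusted p = 0.0017), Slc22a8 -0.82 ± 0.16 (adjusted p = 0.0013), Slc22a2 -0.64 ± 0.13 (adjusted p = 0.0014) and Slc47a1 -0.44 ± 0.10 (adjusted p = 0.0025). Slco1a1 had -0.90 ± 0.29 (adjusted p = 0.033), and this call was lost in 12 of 34 alternatives, with adjusted p of 0.0503 to 0.0656. Of those 12, 9 left out a single library, among them sham Polg+/+ replicates 3 and 6 and B-IRI PolgD257A replicates 1 and 3. The other libraries were sham PolgD257A replicates 3 and 6 and B-IRI Polg+/+ replicates 1, 5 and 6. The term did not pass for Slc22a13 (-0.70, adjusted p = 0.069), Slc22a6 (-0.56, adjusted p = 0.067), Slc22a12 (-0.34, adjusted p = 0.11) and Abcc2 (0.13, adjusted p = 0.57). Slc22a13 passed when B-IRI PolgD257A replicate 3 was left out (adjusted p = 0.00921), and likewise for replicate 3 of sham PolgD257A (0.0359) and replicates 2 (0.0394) and 6 (0.0482) of B-IRI Polg+/+. It also passed with library weights on all 24 libraries (-0.75, adjusted p = 0.0270). Slc22a6 passed when replicate 4 (0.0470) or 6 (0.0435) of B-IRI PolgD257A was left out, and likewise for replicate 4 of B-IRI Polg+/+ (0.0487).

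The authors' deposited table of selected genes holds 6 of the 9 transporters. It gives a shrunken log2 fold change that by its name sets PolgD257A against Polg+/+ after B-IRI. It also gives an s-value, which estimates the share of wrong signs among genes with an s-value as small or smaller. In the authors' deposited table Slc22a7 is at -0.79 (s-value 1.7e-08), Slco1a1 at -0.73 (7.8e-05), Slc22a8 at -0.69 (7.4e-10), Slc22a2 at -0.62 (2.9e-12), Slc22a13 at -0.55 (0.00138) and Slc22a6 at -0.50 (5.8e-05). Slc22a12, Slc47a1 and Abcc2 are not among the genes of the authors' deposited table analysed here.

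Levels between genes were compared per kilobase of annotated exon. In sham Polg+/+ the order was Slc22a12 (11425 ± 1299 normalized counts per kb, SD), Slc22a6 (6248 ± 1232), Slc47a1 (5038 ± 397), Slc22a2 (3409 ± 396), Slc22a7 (3147 ± 439), Slc22a8 (2361 ± 274), Slco1a1 (1425 ± 468), Abcc2 (1125 ± 80.7) and Slc22a13 (1042 ± 81.0). The ranges of neighbours overlapped between Slc22a6 and Slc47a1, between Slc22a2 and Slc22a7, and among the last 3. In B-IRI PolgD257A the first 4 places were held by the same genes in the same order as in sham Polg+/+, at 7992 ± 1220.0, 4179.9 ± 983, 2508 ± 249 and 1563 ± 230.2 per kb. Abcc2 followed at 1343 ± 265, ahead of Slc22a8 at 768 ± 181, Slc22a7 at 746 ± 241, Slc22a13 at 457 ± 178 and Slco1a1 at 327 ± 71.8. From Slc22a2 downward each gene's range overlapped with that of the next. In sham PolgD257A, Slc22a7 was the fourth and Slc22a2 the fifth, with ranges that overlapped. Abcc2 was the fifth of 9 per kb in B-IRI PolgD257A and also in B-IRI Polg+/+, there at 1353 ± 42.0. It was the ninth in sham PolgD257A and the eighth in sham Polg+/+. At each of these places its range overlapped with that of a neighbour.

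Within groups the transporters varied together to different degrees. Over the 24 libraries, after subtracting each group mean on the log2 scale, Pearson's r was 0.76 between Slc22a6 and Slc22a12 and 0.75 between Slc22a6 and Slc47a1, against 0.29 between the neighbours Slc22a6 and Slc22a8 and -0.38 between Slc22a13 and Slco1a1. Among 10829 genes ranked in this way, those most like Slc22a13 were Napsa (0.98), Aqp1 (0.95) and A4gnt (0.93). Those most like Slc22a6 were Cd36, Ces2c and Def8 (0.89 to 0.87), and those most like Slc22a8 were Kmo, BC024386 and Pbld1 (0.80 to 0.75). Slc22a7 came closest to Cyp7b1 (0.87), Gpr162 and C8a, Slc22a2 to Glb1 (0.90), Car4 and Them7, and Slc47a1 to Hykk (0.89), Hpn and Nudt12. Slc22a12 came closest to Tmem120b (0.90), Acot12 and Slc25a10, Slco1a1 to Nxpe3 (0.89), Slc30a2 and Tmem30a, and Abcc2 to Atf6 (0.82), Gatad2a and Herc3. These points share library, depth and tissue sampling.

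Within each injured group of 6, the transporters were set against the injury marker Havcr1, giving 18 relations. None passed after Benjamini-Hochberg adjustment over the 18, the smallest adjusted exact permutation p being 0.133 for Pearson's r and 0.150 for Spearman's rho. Slc22a13 in B-IRI Polg+/+ had r = -0.95 (exact permutation p = 0.0222) and rho = -0.89 (p = 0.0333), and r = -0.62 without the 2 libraries farthest from the median of Havcr1. Slc47a1 in B-IRI PolgD257A had r = -0.76 (exact permutation p = 0.00833) and rho = -0.94 (p = 0.0167), and r = -0.59 without its 2 farthest libraries. Slc22a12 in B-IRI PolgD257A had r = -0.87 (exact permutation p = 0.0194) and rho = -0.89 (p = 0.0333), and r = -0.71 without those libraries. Slc47a1 in B-IRI Polg+/+ had r = -0.75 (exact permutation p = 0.136) and rho = -0.94 (p = 0.0167), and r = -0.94 without the 2 farthest libraries. The other 14 had r between -0.75 and 0.11, the highest being Slc22a2 in B-IRI PolgD257A, and unadjusted exact permutation p above 0.05.

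The other members of the families were taken from lists. Of 21 further SLC22 and MATE carriers, 17 passed the filter on low values. In B-IRI PolgD257A 13 were lower and 1 was higher than in sham PolgD257A, and in B-IRI Polg+/+ 10 were lower and none higher than in sham Polg+/+, with median log2 changes of -0.73 and -0.40. The shares over all genes tested were 30.3% lower and 30.2% higher in PolgD257A, and 19.8% lower and 21.4% higher in Polg+/+. Slc22a22, a prostaglandin-specific anion carrier of the mouse kidney, had -2.76 and -1.12 in PolgD257A and in Polg+/+. The mouse anion carrier relatives Slc22a26 (-2.61 and -1.48), Slc22a28 (-1.90 and -0.68), Slc22a30 (-1.87 and -0.77) and Slc22a19 (-1.74 and -0.78) fell in both genotypes, and their counts are given as uncertain, since reads shared within this gene family were not examined. The exception was Slc22a15, at 0.67 in PolgD257A (limma, adjusted p = 0.00048) and 0.32 in Polg+/+ (adjusted p = 0.096), with a mean of 80.5 normalized counts. The interaction passed for 11 of the 17, all negative, against 15.9% of all genes tested, 9.08% negative.

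Of 14 further organic anion transporting polypeptides, 7 passed the filter, and they split. In PolgD257A 3 were lower and 2 higher after B-IRI, and in Polg+/+ 4 were lower and 2 higher. Over all genes tested, 30.3% were lower and 30.2% higher in PolgD257A, and 19.8% lower and 21.4% higher in Polg+/+. The counts of this list in PolgD257A were near these shares. Slco4c1 (-1.93 and -0.92 in PolgD257A and in Polg+/+), a kidney carrier of digoxin and thyroid hormone in rat and human, and Slco1a6 (-1.22 and -0.61), a close relative of Slco1a1 whose reads may be shared with it, were lower. The prostaglandin transporter Slco2a1 (1.48 and 0.83) and Slco4a1 (0.56 and 0.42) were higher.

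Abcc2 was not alone among efflux pumps. Of 10 further ABC drug pumps that passed the filter, of 12 listed, 7 were higher and 2 lower after B-IRI in PolgD257A. In Polg+/+ 6 were higher and 1 lower, and the medians were 0.56 in PolgD257A and 0.18 in Polg+/+. Of all genes tested, 30.2% were higher and 30.3% lower in PolgD257A, and 21.4% higher and 19.8% lower in Polg+/+. Abcb1b, which encodes P-glycoprotein, had 228, 446 and 552 normalized counts in B-IRI PolgD257A and 244, 281 and 321 in B-IRI Polg+/+, against 54.8, 88.2 and 117 in sham PolgD257A and 64.8, 125 and 186 in sham Polg+/+. No injured library overlapped with a sham library of its genotype. Its log2 change was 2.31 and 1.22 in PolgD257A and in Polg+/+, that of its paralog Abcb1a was 1.00 and 0.58, and that of the luminal MRP4 gene Abcc4 was 1.28 and 0.93. Abcc6, which supports ATP release, moved the other way with -1.30 and -0.78. Abcg2 had a mean of 8907 normalized counts and did not pass in either genotype. It changed by -0.04 in PolgD257A (limma, adjusted p = 0.61) and by -0.01 in Polg+/+ (adjusted p = 0.89).

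All 11 genes listed as partners that feed dicarboxylate, monocarboxylate, urate or bile acid exchange passed the filter. In PolgD257A 10 were lower after B-IRI and none higher, and in Polg+/+ 7 were lower and none higher. The shares of all genes tested were 30.3% lower and 30.2% higher in PolgD257A, and 19.8% lower and 21.4% higher in Polg+/+. Slc5a8, a sodium-coupled carrier of lactate and nicotinate that feeds urate exchange, had -2.18 and -1.13 in PolgD257A and in Polg+/+. Slc51a, a subunit of the basolateral bile acid and steroid exporter, had -1.55 and -1.10, the monocarboxylate family member Slc16a9 -1.50 and -0.73, and Slc17a3, whose human product exports urate, -1.40 and -0.53. Slc13a3 encodes the sodium dicarboxylate carrier whose gradient drives OAT1 and OAT3. It changed by -0.74 in PolgD257A (limma, adjusted p = 1.1e-05) and by -0.06 in Polg+/+ (adjusted p = 0.73), and its interaction of -0.68 passed (adjusted p = 0.0093).

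**Figure D4:**
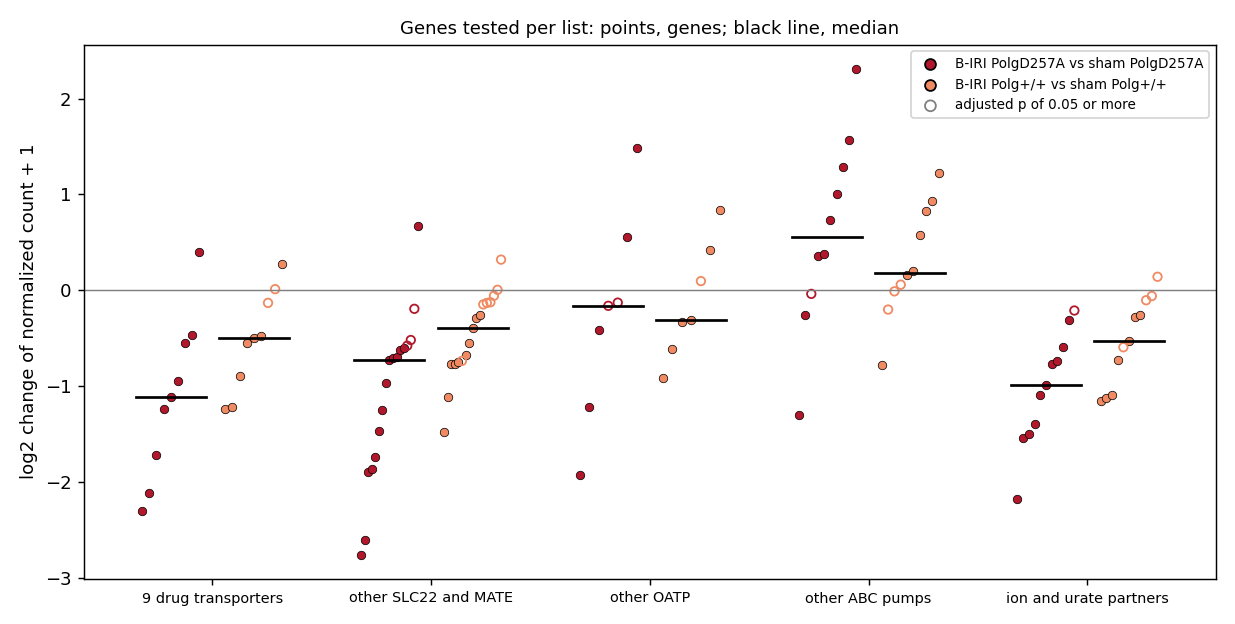
Log2 change after B-IRI of every gene tested, in PolgD257A and in Polg+/+, for the 9 transporters and 4 lists of related genes, with the list medians as lines and open points at an adjusted p of 0.05 or more. Medians lie below 0 in all lists but the other ABC pumps, where they are 0.56 in PolgD257A and 0.18 in Polg+/+.

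Of 19 regulators and scaffold genes, 18 passed the filter, with 11 lower and 4 higher in PolgD257A and 8 lower and 2 higher in Polg+/+ after B-IRI. Between the injured groups 6 were lower and 1 higher in PolgD257A. Of all genes tested, 30.3% were lower and 30.2% higher after B-IRI in PolgD257A, and 19.8% lower and 21.4% higher in Polg+/+. Between the injured groups the shares were 15.2% lower and 14.3% higher in PolgD257A. Pdzk1, the scaffold that holds URAT1 and other carriers at the brush border, had -1.11 and -0.34 in PolgD257A and in Polg+/+. Hnf4g had -0.75 and -0.35, and Hnf4a had -0.42 in PolgD257A (limma, adjusted p = 4e-05) and -0.10 in Polg+/+ (adjusted p = 0.31). HNF4 alpha is known to drive anion carrier genes of the tubule. Nfe2l2, which encodes NRF2, was among the 4 that were higher in PolgD257A, at 0.30 (limma, adjusted p = 7.3e-05). It was at 0.08 in Polg+/+ (adjusted p = 0.25), where the 2 higher ones were other genes. Between the injured groups Nfe2l2 was higher in PolgD257A by 0.22 (limma, adjusted p = 0.0046), while Abcc2 differed by -0.04 (adjusted p = 0.80). A relation of Nfe2l2 to the Abcc2 values was not tested.

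Lists of cell type markers moved to different degrees after B-IRI. Of 16 proximal tubule markers, 15 were lower after B-IRI in PolgD257A, with a median of -1.29, and 14 were lower and 1 higher in Polg+/+, with a median of -0.51. Their summed level ranged over 224694 to 313497 normalized counts in B-IRI PolgD257A and 377493 to 499117 in B-IRI Polg+/+, against 708344 to 830650.2 in sham PolgD257A and 660141 to 794031 in sham Polg+/+. A joint list of 13 markers covered the thick ascending limb, distal tubule and collecting duct, the last with Aqp2, Aqp3, Scnn1g, Atp6v1b1, Slc4a1 and Foxi1. Of these 13, 9 were lower in PolgD257A and 6 lower with 2 higher in Polg+/+, and the segments were not counted apart. The 10 injury markers were all higher in both genotypes. Of 6 stromal markers 5 were higher and 1 lower in both genotypes. All 6 summed to 8857 to 14945 in B-IRI PolgD257A and 4731 to 10272 in B-IRI Polg+/+. In sham PolgD257A they summed to 2321 to 3406, and in sham Polg+/+ to 2773 to 3591. Of 11 leukocyte markers 5 were higher and 1 lower in both genotypes, with sums of 2344 to 3509 in B-IRI PolgD257A and 1987 to 3298 in B-IRI Polg+/+, against 2381 to 2974 in sham PolgD257A and 2468 to 3165 in sham Polg+/+. Podocyte and endothelial markers gave 4 higher and 2 lower of 10 in PolgD257A and 1 higher and 2 lower in Polg+/+. With backgrounds of 60.4% of all genes passing in PolgD257A and 41.2% in Polg+/+, the counts of this list in both genotypes and of the leukocyte list in PolgD257A do not stand above the background. The part of these shifts in the transporter values was not tested. No defining marker of these lists was at 0 in every library. Against the proximal tubule median of -1.29 in PolgD257A, Slc22a7 (-2.30), Slco1a1 (-2.12) and Slc22a8 (-1.72) fell further, and Slc22a6 (-0.55) and Slc22a12 (-0.47) less far.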

How the data were processed

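RNA was extracted from mouse kidney with RNeasy kits and libraries were prepared with a NEBNext Ultra II kit, per the labels' protocols. The labels call the 6 libraries of a group biological replicates. The submitters' processing notes name FastQC, STAR, SAMtools, featureCounts, DESeq2 and the build GRCm38.p6, with no versions. The sources used here do not state strandedness. Deposited signal values are normalized counts, gene counts that the authors divided by a size factor for each library (0.740 to 1.31). Multiplied back, 100% of values were whole reads within 0.001. A second table deposited by the authors holds a shrunken log2 fold change and an s-value, a quantity akin to an adjusted p-value. Column names with Ctrl, Mut and SurgBIR were read as Polg+/+, PolgD257A and B-IRI, which no source used here states.

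Gene IDs were matched to GENCODE M21 without their version (52083 of 55416 found), and coordinates are from GENCODE M21 on GRCm38. The main test was limma-trend (limma 3.58.1, R 4.3.3) on log2(normalized count + 1), with 1 mean per group over 24 libraries, for the 17430 genes that had 10 or more normalized counts in 6 or more libraries, adjusted by Benjamini-Hochberg per comparison over all genes tested. Fold changes are on that scale, which understates those of low genes. Ratios of 2 transporters were compared by exact two-sided permutation (SciPy 1.17.1, Python 3.11.15), adjusted over 16 tests. Alternatives included edgeR 4.0.16 and DESeq2 1.42.0 on the recovered counts, which the authors' size factors gave back. The scripts were tested on simulated data.

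The members, gene lists, pairs and tests were chosen with earlier results of these data known. All 9 members are named. From a list, up to 6 genes per comparison with the largest change among called genes whose mean is 100 normalized counts or more are named, and any that moved against the rest. A few genes that this rule reaches, and 1 motif searched in promoters, are not reported here. Likeness is Pearson's r after subtracting group means, among genes with that mean and a symbol that is no predicted gene or pseudogene. Whether p-values reflect separate animals rests on the labels.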

Additional observations from a re-analysis of the deposited data

Results flagged for a closer look

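In 3 of 36 gene and group combinations, 1 library stood far from the other 5, by Dixon's ratio of its gap to the group's range, which chance exceeds in about 1 of 20 groups. Slc22a7 reached 8441 normalized counts in sham Polg+/+ replicate 4. Slc22a13 was at 1448 in sham PolgD257A replicate 3. Abcc2 reached 10905 in sham Polg+/+ replicate 3.

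The B-IRI change differed between PolgD257A and Polg+/+ by the interaction term for 5 transporters, each with a larger fall in PolgD257A. On the log2 scale the terms were -1.06 for Slc22a7, -0.90 for Slco1a1, -0.82 for Slc22a8, -0.64 for Slc22a2 and -0.44 for Slc47a1. Of all genes tested, 15.9% passed the interaction term, 9.08% with a negative value.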

How the results depend on the processing

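Over 1566 recomputed values of single transporters, 1520 kept their direction and their side of the threshold, 16 lost a call, 8 gained one and 22 changed sign, all of these without a call. With quantile normalization the uncalled change of Slc22a12 in B-IRI against sham Polg+/+ was 0.16 and that of Abcc2 between the injured groups was 0.081. With library weights Slc22a6 in B-IRI against sham Polg+/+ was -0.064, Abcc2 between the injured groups 0.0081, Slc22a13 between the sham groups 0.033 and Slco1a1 there -0.10, and DESeq2 gave Slc22a6 in B-IRI against sham Polg+/+ as -0.00262. Leaving out 1 library gave -0.11 to 0.074 for Slc22a6 in B-IRI against sham Polg+/+ and -0.099 to 0.070 for Abcc2 between the injured groups. Between the sham groups it gave -0.072 to 0.031 for Slc22a2, -0.16 to 0.016 for Slc22a6, -0.14 to 0.14 for Slco1a1, -0.067 to 0.076 for Slc22a13 and -0.16 to 0.030 for the ratio of Slc22a12 to Slc22a13. Leaving out 1 library gave ratio shifts of 0.62 to 0.95 for Slc22a12 over Slc22a13 in PolgD257A and 0.34 to 0.53 in Polg+/+, and a pseudocount of 5 gave 0.77 in PolgD257A. Leaving out 1 library gave 0.13 to 0.25 for Slc47a1 over Slc22a2 in PolgD257A and 0.10 to 0.22 between the injured groups, where the test passed without B-IRI PolgD257A replicate 2. Slco1a1 over Abcc2 between the injured groups gave -0.94 to -0.71. The cause of these changes was not tested.

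Same-numbered libraries did not deviate together (r of -0.33 to 0.17 over 36 pairs, median -0.01). No pairing by number was seen, though low r values cannot exclude that the numbers mark a shared origin. With the replicate number as a block, 4 in place of 5 interaction terms passed, Slco1a1 being lost (-0.90, adjusted p = 0.0563), and no other count changed. Sign flips within numbers cannot give an unadjusted p below 0.03125. The smallest adjusted p they gave here was 0.10, so no ratio test passed with this replicate block. Its values were 1.17 and 0.91 for Slc22a6 over Slc22a8, 0.77 for Slc22a12 over Slc22a13 in PolgD257A, and -2.52, -1.49 and -0.81 for Slco1a1 over Abcc2. The lowest library value of the 9 was 533 normalized counts, and the part of depth in the results was not tested.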
